A study of Mus musculus with 60 samples.

Results

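Cortical gene expression at baseline was compared between inbred mouse strains prone to autoimmune disease and other inbred strains. NZB/BlNJ, NZW/LacJ, MRL/MpJ and NOD/LtJ gave 4 arrays of males that drank plain water, out of 60 arrays in all (30 strains, each with 1 water array and 1 array of males given fluoxetine, an antidepressant that blocks serotonin reuptake, at 18 mg/kg per day for 21 days). The 4 were chosen by their strain and treatment labels, and they were set against the water arrays of 23 strains: SWR/J, SM/J, RIIIS/J, PL/J, P/J, MA/MyJ, LP/J, LG/J, I/LnJ, FVB/NJ, DBA/2J, CE/J, CBA/J, C58/J, C57BR/cdJ, C57BLKS/J, C57BL/6J, C3H/HeJ, BUB/BnJ, BALB/cJ, AKR/J, A/J and 129S1/SvImJ. NOR/LtJ, SJL/J and BTBRT T(+) tf/J (3 water arrays) were left out of both groups. Each array carried pooled cortical RNA of 3 males of a strain, labelled as 10 to 11 weeks old, so the strain is the replicate and a single strain has 1 value per treatment. The p-values measure the spread between strains, which mixes genetic, pool and technical differences. The test pools this spread over both groups, so most of it comes from the 23 others. Where the 4 strains differ more among themselves, as for the genes that passed, the p-values do not reflect that wider spread.

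These strains are classic models of loss of immune tolerance. NZB mice make autoantibodies against their own red cells, and their cross with NZW develops a lupus-like kidney disease. MRL/MpJ is the background on which the lpr mutation of Fas gives severe lupus and is itself prone to a milder, later disease, and NOD mice develop T cell driven diabetes. NZB and NZW share a New Zealand origin, and LG/J, AKR/J and C3H/HeJ, which are among the 23, are founders of MRL/MpJ. Known or proposed risk loci hold the major histocompatibility complex (MHC, the genes that present peptides to T cells), the interferon-inducible 200 family, the SLAM receptors, the inhibitory Fc receptor Fcgr2b and complement. In brain tissue, MHC class II and Fc receptors mark mainly microglia and macrophages, and class I genes are widely but weakly used.

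Levels are log2 of the deposited intensities. The lowest value on every array was 2.07, at which up to 27.9% of the probe sets of an array lay, and levels close to it are compressed and have no order. Cortical markers were strongly read: averaged over the 60 arrays, the log2 level was 12.34 for Slc17a7, the vesicular glutamate transporter of cortical neurons, 13.07 for the kinase gene Camk2a and 12.18 for Neurod6. Mean array quality was close between the groups. The 3' minus 5' signal of Actb averaged 1.42 ± 0.0327 on autoimmune-prone arrays and 1.38 ± 0.0883 on the others (SD, n = 4 and 23; two-sided exact permutation test, p = 0.471). For Gapdh the same test gave p = 0.518, and for the spike-in controls p = 0.654. The NZB array stood apart for Gapdh, at -0.02 against -0.28 to -0.09 in the others. Its Actb and spike-in values lay inside the ranges of the others.

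Very few cortical genes separated the autoimmune-prone strains from the others. At an adjusted p under 0.05 (limma across all genes, two-sided, Benjamini-Hochberg adjustment), 3 of 11886 genes differed (0.0252%), 2 of them higher (0.0168%) and 1 lower (0.00841%). Of the higher genes, Sftpc passed the filter on low values only because autoimmune-prone arrays were high. A stricter filter at log2 6 left 0 higher and 1 lower. With every array centred on its own median the lower one passed and neither higher one did (0 higher, 1 lower). Without adjustment, 558 genes (4.69%) had a p under 0.05, of which 294 lay higher (2.47%) and 264 lay lower (2.22%). The median absolute difference was 0.06 on the log2 scale, 55 genes differed by at least 1, and there was no gene (0 of 11886, 0%) for which all 4 autoimmune-prone arrays lay above, or all 4 below, every one of the 23 others.

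The gene that passed most clearly was 6330415B21Rik, for which the files give no function. Its log2 level was 9.03 in NZB, 9.09 in NZW, 10.25 in MRL and 9.87 in NOD, and it ran from 10.06 to 10.54 with a median of 10.37 in the other strains. The SD was 0.599 among the 4 strains and 0.112 among the 23. NZB, NZW and NOD lay below all 23, while MRL lay among them. It was lower by a log2 difference of -0.79 (SE 0.123; limma adjusted p = 0.00823). The fluoxetine arrays, from other mice, gave 9.03 in NZB, 9.05 in NZW, 10.3 in MRL and 10.29 in NOD, so the low level recurred in the New Zealand strains and not in NOD. The difference there was -0.61 and did not pass (limma adjusted p = 0.428), nor did the mean of both arrays (-0.70, adjusted p = 0.0535). The call was lost without NZB (difference -0.61, limma adjusted p = 0.108), without NZW (-0.63, adjusted p = 0.169) and with these related strains averaged as 1 sample (-0.62, adjusted p = 0.0913).

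Zfp937, a zinc finger gene, was higher by 1.01 (SE 0.189; limma adjusted p = 0.0483), a 2.01-fold difference. Its level was 7.58 in NZB, 8.56 in NZW, 6.45 in MRL and 8.06 in NOD, against 6.24 to 7.11 with a median of 6.73 in the others. The SD was 0.902 among the autoimmune-prone strains and 0.193 among the others. Again 3 strains stood outside and MRL did not. The fluoxetine arrays repeated the pattern, with 7.79, 8.14, 6.74 and 8.31 in the same strain order, against 5.99 to 7.04 in the others (difference 1.05, limma adjusted p = 0.0161). Without MRL the difference in water arrays was 1.41 (limma adjusted p = 1.81e-06). The call was lost without NZB (1.04, adjusted p = 0.15), NZW (0.71, 0.337) or NOD (0.88, 0.163), and with NZB and NZW averaged as 1 sample (0.87, 0.241). It was also lost without LG/J, AKR/J and C3H/HeJ (1.02, limma adjusted p = 0.0849) and without SWR/J and FVB/NJ (1.01, adjusted p = 0.113).

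Sftpc, the other gene that passed, encodes surfactant protein C of the lung and read close to the bottom of the scale. It reached the filter's log2 level of 4 on 6 arrays, 4 of them of autoimmune-prone strains, so it was tested only because those arrays were high. Its level was 4.15 in NZB, 3.6 in NZW, 4.07 in MRL and 4.55 in NOD, against 3.58 to 3.88 in the other strains, of which 14 shared the value 3.6. The SD was 0.392 among the autoimmune-prone strains and 0.0657 among the others. The difference was 0.48 (SE 0.0809; limma adjusted p = 0.014). In the fluoxetine arrays only NOD, at 4.27, lay above all others, whose highest was 4.22, and the difference was 0.17 (limma adjusted p = 0.864). The other Sftpc probe set read 2.09 in all 4 strains, next to the floor. The call was lost without NZB (0.46, adjusted p = 0.108) or NOD (0.33, adjusted p = 0.0959).

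**Figure D1:**
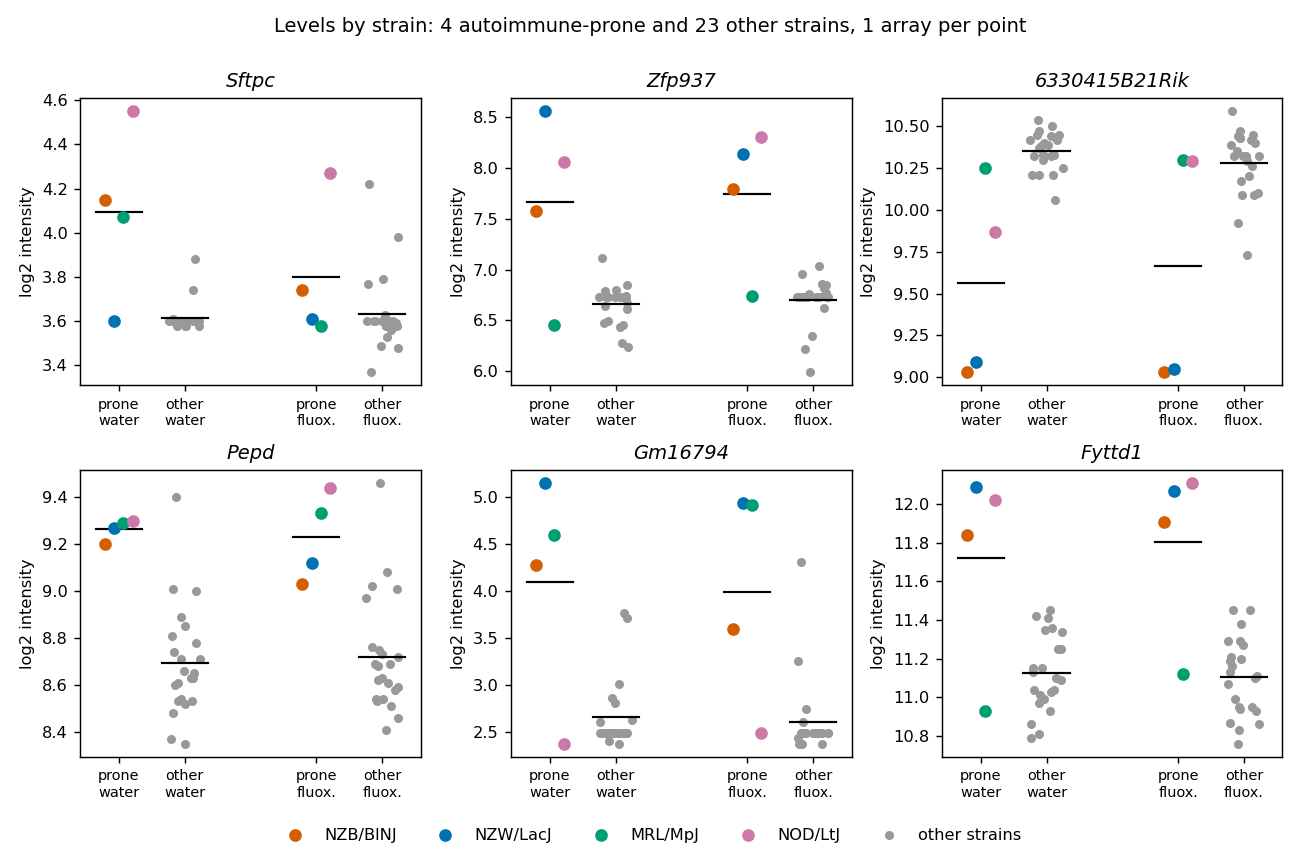
Log2 intensity of 6 genes in every strain, 1 point per array; coloured points are the 4 autoimmune-prone strains, grey points the 23 others, left pair water arrays and right pair fluoxetine arrays, and bars are group means. MRL (green) lies among the other strains for Zfp937, 6330415B21Rik and Fyttd1, and NOD (pink) does so for Gm16794.

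The genes with the next smallest p-values did not pass, and they differed in which strains stood apart. Gm16794 was at 4.28, 5.15, 4.59 and 2.37 in NZB, NZW, MRL and NOD, against 2.37 to 3.76 in the others (difference 1.44, SE 0.284; limma adjusted p = 0.0577), so NOD was at the lowest level of the others. It reached log2 4 on 6 arrays, 5 of them of autoimmune-prone strains, and like Sftpc it was tested only through them. The fluoxetine arrays gave 3.59, 4.94, 4.91 and 2.49, against 2.37 to 4.31, with NZW and MRL above all others and NZB among them. Fyttd1, an adaptor for export of messenger RNA from the nucleus, was at 11.84, 12.09, 10.93 and 12.02 in that order, against 10.79 to 11.45 (0.60, SE 0.138; limma adjusted p = 0.244). Here NZB, NZW and NOD lay above all 23, MRL lay among them, and NOR/LtJ, a relative of NOD that was left out of the groups, was at 12.09. Further probe sets did not repeat this in full: one was at 9.81, 10.59, 10.41 and 10.59 in the 4 strains, against 9.61 to 11.01, and the mean of all probe sets differed by 0.27 (limma adjusted p = 0.733). In the fluoxetine arrays Fyttd1 differed by 0.70 and passed (limma adjusted p = 0.0419).

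Pepd was close to 1 level in the water arrays of all 4 strains. This gene, whose enzyme splits dipeptides that end in proline, was at 9.2 in NZB, 9.27 in NZW, 9.29 in MRL and 9.3 in NOD. In the other strains it ran from 8.35 in SWR/J to 9.4 in LG/J, with a median of 8.65. The difference was 0.57 (SE 0.116; limma adjusted p = 0.0698). LG/J alone lay above the 4 strains, and the next of the others, C58/J, was at 9.01. Without the MRL founders LG/J, AKR/J and C3H/HeJ, the gene passed (0.60, limma adjusted p = 0.0117). That was the 1 of 16 alternatives in which it passed, and it left out LG/J, the strain above the 4. In the fluoxetine arrays the 4 strains were at 9.03, 9.12, 9.33 and 9.44 in the same order, against 8.41 to 9.46. The difference there was 0.51 and did not pass (limma adjusted p = 0.281). NOR/LtJ at 9.18 and SJL/J at 9.2, which are in neither group, had the level of the 4 strains.

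Among genes farther from the threshold, the New Zealand strains were low in Fank1 and Cdca4. In Fank1 NZB and NZW were both at 5.22, MRL was at 7.84 and NOD at 8.45, against 6.4 to 9.48 in the others (-1.67, SE 0.421; limma adjusted p = 0.341). Cdca4 had the same shape, with 6.36 in NZB and 7.03 in NZW, then 8.27 in MRL and 8.22 in NOD, against 7.2 to 8.82 (-0.86, SE 0.231; limma adjusted p = 0.485). Further probe sets did not repeat this in full in the water arrays. A second Cdca4 probe set was at 7.71, 7.45, 7.65 and 7.65 in the 4 strains, against 7.2 to 8.08, and another was low in NZB (6.72, against 7.02 to 7.26) but not in NZW (7.13). In water arrays the other Fank1 probe sets kept NZW inside the range of the others. With fluoxetine, a second Fank1 probe set had NZB (6.65) and NZW (6.49) below the others (6.95 to 7.67). Another also had them below there, at 5.58 and 5.75 against 5.79 to 6.8, and with water it had NZB alone below.

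Other genes of small p were low probe sets on which most strains shared 1 value. For Stk32a, a kinase gene, 18 of the 23 others were at 4.13 while NZW was at 4.5, MRL at 4.27 and NOD at 5.04. In the fluoxetine arrays all 4 were at 4.13 to 4.15. 1700120C14Rik (difference 0.23, SE 0.0448; limma adjusted p = 0.0577) and Gm15527 (0.62, SE 0.144; limma adjusted p = 0.244) had that shape too, with 17 and 20 of the 23 others on 1 value. 1700120C14Rik reached log2 4 on 7 arrays, 4 of them of autoimmune-prone strains, so it too was tested only through them. Gm15527 was at 6.94 in NZB, 5.68 in NZW, 5.24 in MRL and 5.53 in NOD, and without NZB its difference was 0.25 (limma adjusted p = 0.591).

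Napb, Tdp2 and Nrcam had the next smallest p-values on the lower side after 6330415B21Rik, all well short of the threshold. Napb, the neuronal SNAP protein that takes apart SNARE complexes after vesicle fusion, was at 13.2 in NZB, 13.39 in NZW, 13.68 in MRL and 13.59 in NOD, against 13.57 to 13.94 (-0.28, SE 0.0633; limma adjusted p = 0.215). NZB and NZW lay below all 23. Nrcam, a neuronal cell adhesion molecule, was at 12.99, 12.64, 12.89 and 13.14 in the same order, against 12.99 to 13.27 (-0.21, SE 0.0528, limma adjusted p = 0.341), so NZB, NZW and MRL lay below all 23, NZB by less than the rounding. Further Nrcam probe sets differed. A second had NZB (12.16) and NZW (12.18) inside 11.94 to 12.44 and MRL (11.81) below. Another had NZB (8.66) and MRL (8.65) near the top of 7.37 to 8.87 and NZW (7.09) below. The last was low in all 4 strains, at 5.59 to 5.79 against 5.6 to 8.44. Tdp2, which repairs DNA ends blocked by topoisomerase, was at 9.06, 9.45, 10.06 and 9.22, against 9.12 to 10.31 (-0.61, SE 0.154; limma adjusted p = 0.341), and NOR/LtJ was at 9.17, close to NOD. Zbtb7a, a transcription repressor, differed by -0.31 (limma adjusted p = 0.341) and Ripor2 by -0.48 (limma adjusted p = 0.378). Further probe sets differed by 0.02 and 0.03 for Zbtb7a, and by -0.57, -0.08 and -0.07 for Ripor2.

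Immune pathway genes gave no call in the 4 strains. Of 147 tested members of 14 lists 0 passed in limma, against 0.0252% of all genes. Without adjustment, 6 had a p under 0.05 (4.08%, against 4.69% of all genes), and the smallest limma adjusted p was 0.753. The difference was above 0 in 89 members (60.5%, against 53.5% of all genes), with a median of 0.04, against 0.01 over all genes tested. The 147 are those of 263 measured members (305 listed) that passed the filter on low values. In the SLAM family 0 of 10 measured members passed it, and in the interferon-inducible 200 family 0 of 8.

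For the genes best known from these models, the cortex gave mostly floor values. Ifi202b, the NZB lupus candidate of the interferon-inducible 200 family, was at 2.07 in all 4 strains, with water and with fluoxetine, and at 2.07 to 2.86 with water and 2.07 to 7.18 with fluoxetine in the others. Hc, the gene of complement C5, was at 2.07 to 2.08 against 2.07 to 2.51, and Fas was at 2.08 to 2.28 against 2.07 to 2.34. Slamf6, Ly9, Cr2, Ctla4 and Cd72 lay between 2.07 and 2.12 in the 4 strains on the probe sets used, and Ptpn22 was at 3.56 in all 4. No strain difference in these genes was resolved at this signal. Of the candidates with a readable level, P2rx7 was at 4.1, 3.54, 4.13 and 3.57 and Slc11a1 at 4.4, 4.22, 4.4 and 4.64 in NZB, NZW, MRL and NOD. Both stayed inside the ranges of the others, 3.54 to 4.65 for P2rx7 and 3.82 to 5.06 for Slc11a1.

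Class I genes were readable but depended on the probe set. B2m, the light chain shared by class I molecules, was at 12.12, 12.56, 12.36 and 12.22 in NZB, NZW, MRL and NOD, against 11.85 to 13.02 in the others. H2-K1 was at 8.76, 9.1, 4.98 and 9.03, against 4.61 to 11.41, so MRL was the low one of the 4. H2-D1 was at 9.73, 10.04, 7.8 and 9.9, against 6.58 to 12.29. These genes differ in sequence between strains, and other H2-D1 probe sets gave another order: 1 read 7.19 in MRL and 2.1 in NZB, NZW and NOD, and 3 others read 8.01 to 8.27 in NZB and 2.1 to 2.27 in the remaining 3. Whether probe match or expression sets these levels was not tested. Over the whole class I list, 6 of 11 tested members were higher and 0 passed. Calr, a chaperone of class I assembly, differed by 0.15 (SE 0.0628; limma adjusted p = 0.986).

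Class II genes, which present peptides to helper T cells, are switched on through promoter boxes bound by a common set of factors, among them the Y box, the element of NF-Y. The promoters of H2-Aa and H2-Eb1 are shown, and the capitals mark the Y box letters CTGATTGG, which the search took on either strand. Both genes were high in the NOD fluoxetine array, and theirs were the matched promoters that held the letters. Cd74, also high in that array, had no promoter entry. A link between the letters and the NOD levels was not tested. Of the 7 tested class II genes 4 matched a promoter entry of RefSeq (GRCm38.p6), and 2 of these held the letters, as did 4.1% of 32851 mouse promoters of the same 300 bases. The letters began 51 bases before the start site in H2-Aa and 62 in H2-Eb1.
H2-Aa, GRCm38.p6 chr17:34287774-34288073, minus strand: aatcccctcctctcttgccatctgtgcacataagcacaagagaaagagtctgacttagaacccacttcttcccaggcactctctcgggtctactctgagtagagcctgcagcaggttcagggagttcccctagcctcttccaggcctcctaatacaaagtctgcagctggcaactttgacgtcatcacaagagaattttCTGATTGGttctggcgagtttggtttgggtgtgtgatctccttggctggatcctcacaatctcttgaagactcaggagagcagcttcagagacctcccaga
H2-Eb1, GRCm38.p6 chr17:34305617-34305916, plus strand: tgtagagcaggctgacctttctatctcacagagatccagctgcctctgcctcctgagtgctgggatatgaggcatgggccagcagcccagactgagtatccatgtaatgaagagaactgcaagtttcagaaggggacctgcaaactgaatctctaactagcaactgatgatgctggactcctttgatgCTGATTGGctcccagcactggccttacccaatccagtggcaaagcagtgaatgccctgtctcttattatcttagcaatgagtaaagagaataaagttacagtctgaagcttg

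For H2-Eb1, H2-Ab1 and Cd74 NOD was the highest of the 4 strains in water arrays and stayed inside the range of the others. H2-Eb1 was at 4.93 in NOD and at 3.8 in each of NZB, NZW and MRL, against 3.26 to 5.18 in the others, of which 3 shared the value 3.8. H2-Ab1 was at 4.92 in NOD and at 4.22 in the remaining 3, against 2.34 to 5.39 in the others, of which 7 shared the value 4.22. Cd74, the invariant chain that guides class II molecules, was at 7.28 in NOD and at 6.36 in NZB, 6.09 in NZW and 6.85 in MRL, against 5.62 to 8.29. H2-Aa was at 3.64 in NOD and 3.7 in MRL, with 3.19 in NZB and NZW, against 2.96 to 5.28. The related NOR/LtJ, in neither group, was near NOD in water arrays for H2-Eb1 (4.69), H2-Ab1 (4.7) and Cd74 (7.23). For H2-Aa it was above NOD (4.18). BTBRT T(+) tf/J was above NOD for Cd74 (7.52) and H2-Aa (4.75) and below it for H2-Eb1 (4.36) and H2-Ab1 (4.34). SJL/J was below NOD for each of these genes. In the fluoxetine arrays NOD lay above every other strain of both groups for H2-Eb1 (5.77, against 3.56 to 4.2 in the others), H2-Aa (5.36, against 3.19 to 4.12) and Cd74 (7.89, against 5.53 to 7.68). H2-Ab1 was at 5.16 there, inside the range of 2.31 to 5.56. The mean of the 17 tested microglia markers was 8.7 in NOD with water, against 7.95 to 8.78 in the others, and 8.72 with fluoxetine, against 7.89 to 9.15. NOD lay above all others for 1 of the 17 in each set: C1qa with water (10.63, against 9.2 to 10.55) and Cx3cr1 with fluoxetine (10.44, against 9.23 to 10.35). The part of microglia in the class II levels was not tested.

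Of the 7 tested class II genes 5 were higher, with a median difference of 0.14, and 0 passed. H2-Ea, the alpha chain of the E molecule, had the smallest p of the list, with 8.35 in NZB, 7.95 in NZW, 9.11 in MRL and 8.7 in NOD, against 7.58 to 8.87 in the others (0.52, SE 0.177; limma adjusted p = 0.753). MRL alone exceeded the others. The other H2-Ea probe sets lay at or near the floor in all 4 strains (2.07 to 2.38), while the probe set used read at least 7.58 in every strain of both groups. NOD and C57BL/6J are known to lack the E molecule, so that probe set may not measure H2-Ea. H2-DMa, which loads peptides on class II molecules, was at 8.15 in NZB, 8.61 in NZW, 7.44 in MRL and 7.94 in NOD, against 6.91 to 8.55, a difference of 0.43 (SE 0.226; limma adjusted p = 0.999).

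**Figure D2:**
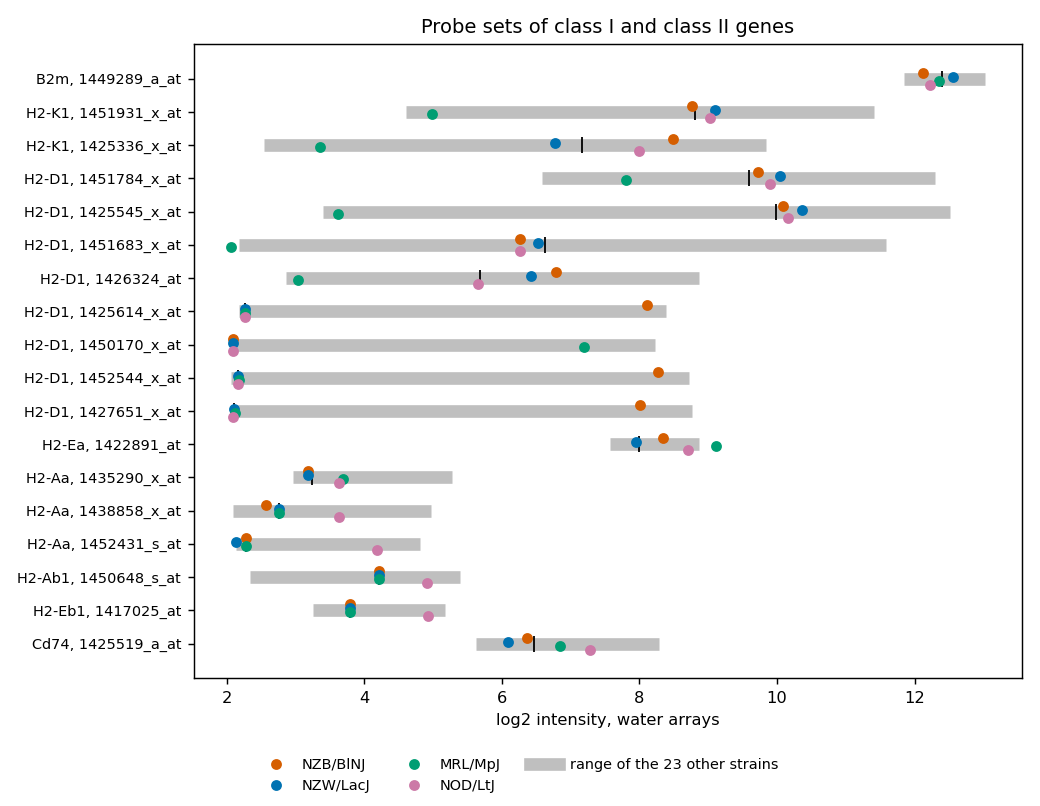
Log2 intensity in the water arrays for probe sets of class I genes (top) and class II genes (bottom); coloured points are the 4 autoimmune-prone strains, and grey bars the range of the 23 others with a tick at their median. MRL is low on the H2-K1 and H2-D1 probe sets used and high on another H2-D1 probe set, and NOD is highest of the 4 for H2-Ab1, H2-Eb1 and Cd74.

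Interferon-response genes gave no call: 13 of 19 tested members were higher (68.4%, against 53.5% of all genes), with a median of 0.05, and 0 passed. A shift of the group was not tested. Ifitm2, a membrane protein that restricts virus entry, was at 9.48 in NZW, above the highest other strain at 8.57, and at 8.35 in NZB, 8.16 in MRL and 7.86 in NOD (0.47, SE 0.241; limma adjusted p = 0.999). Of the interferon-inducible GTPases 2 of 7 were higher, with a median of -0.18, and 0 passed. Gbp7, of the guanylate-binding protein family, had a low level in some strains and a high level in others: 7.91 in NZB, 5.23 in NZW, 4.94 in MRL and 7.13 in NOD, against 4.94 to 8.7 with a median of 7.96 (-1.44, SE 0.511; limma adjusted p = 0.821). A second Gbp7 probe set was likewise lower in NZW (4.63) and MRL (4.87) than in NZB (5.7) and NOD (5.96). C57BLKS/J, among the others, was also at 4.94.

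The difference was above 0 in all 6 tested Fc receptor genes (100%, against 53.5% of all genes), with a median of 0.18, and 0 passed. Fcer1g (0.0, SE 0.131) and Fcgrt (0.04, SE 0.1) barely differed. Fcgr1, the high-affinity receptor for IgG, was at 6.15 in NZB, 5.08 in NZW, 5.08 in MRL and 5.75 in NOD, against 4.84 to 5.88 (0.39, SE 0.168; limma adjusted p = 0.994). NZB lay above the others, but its fluoxetine array, at 5.21, was inside their range of 4.83 to 6.38. Fcgr2b, the inhibitory receptor, was at 7.88, 8.23, 8.54 and 8.37 in NZB, NZW, MRL and NOD, against 7.67 to 8.5 (0.19, SE 0.136; limma adjusted p = 0.999). Its probe sets disagreed: another read 5.18 in NZB and 9.21 in NZW, against 5.0 to 8.97. One more read 3.08 in NZB and 7.01 in NZW, below and above the others (3.87 to 6.96). With the mean of its probe sets the difference turned to -0.04.

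Complement genes were lower in 8 of 11 tested members, with a median of -0.06 and 0 passing. C1qa, a subunit of the first complement component made by microglia, differed by 0.29 (SE 0.191; limma adjusted p = 0.999), while its partners C1qb and C1qc differed by -0.23 and -0.19. Genes of cell death and clearance (11 of 16 higher, median 0.07), of Toll-like and nucleic acid sensing (9 of 15, 0.04), of cytokines and their receptors (10 of 26, -0.02), of lupus and diabetes candidates (9 of 11, 0.03), of retrovirus restriction (7 of 9, 0.04) and of the barrier and leukocyte adhesion (10 of 13, 0.06) gave 0 calls each. Tnip1, a brake on inflammatory signalling, differed by 0.30 (SE 0.157), and Mfsd2a, the lipid transporter of the blood-brain barrier, by 0.25 (SE 0.105), with limma adjusted p-values of 0.999 and 0.986. NZB mice are known for misplaced neurons in the cortex, and of 19 tested genes of cortical neuron migration 12 were higher, with a median of 0.04 and 0 passing. Tubb3 differed by 0.16 (SE 0.0754) and Lrp8, a receptor for reelin, by -0.16 (SE 0.0772), both with a limma adjusted p of 0.999. Genes of synaptic transmission were split, 11 of 24 higher, with a median of -0.01.

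Lymphocyte genes gave little signal in any of these strains. Of 11 T cell markers 2 passed the filter on low values, and Cd3d, Cd3e, Cd3g, Cd4 and Cd8b1 averaged 2.07 to 2.1 over the 60 arrays. Of 10 B and plasma cell markers only Ighm passed, and Cd79a, Cd79b, Pax5 and Cd22 averaged 2.07 to 2.08. Ighm, the heavy chain of IgM, was at 9.4 in NOD, 7.62 in NZB, 7.7 in NZW and 7.54 in MRL, against 6.56 to 9.4 in the others. Of the 2 tested T cell markers the kinase gene Zap70 had the smaller p, with a difference of 0.26 (SE 0.102, limma adjusted p = 0.883). It averaged 3.81 over the 60 arrays and reached log2 4 on 8 of them. How many of those arrays were of autoimmune-prone strains was not counted. In bulk tissue fewer cells of a type and less RNA per cell cannot be told apart.

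Markers of brain cells and of neighbouring tissue were also without calls: 0 of 144 tested members passed, 8 had an unadjusted p under 0.05 (5.56%, against 4.69% of all genes), 102 were higher and the median was 0.07. Oligodendrocyte markers were higher in 10 of 10, with a median of 0.16, and Mag and Mog, proteins of the myelin sheath, differed by 0.38 (SE 0.174) and 0.48 (SE 0.246). In the fluoxetine arrays Mog was at 9.48, 8.96, 7.6 and 8.47 in NZB, NZW, MRL and NOD, against 8.88, 9.03, 8.93 and 9.25 in their water arrays, so MRL and NOD were lower with fluoxetine than with water. Gfap, the filament of astrocytes, differed by 0.40 (SE 0.235; limma adjusted p = 0.999).

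Striatal markers were higher in 6 of 6, with a median of 0.34, and the MRL water array was far above the rest. The mean of these markers was 9.25 in NZB, 9.1 in NZW, 10.18 in MRL and 9.31 in NOD, against 8.78 to 9.41 in the others. Without MRL the 3 remaining strains averaged 9.22, against a mean of 9.11 in the others. Penk, the enkephalin precursor, was at 11.08 in the MRL water array and 9.8 in the MRL fluoxetine array, against 8.82 to 10.05 and 8.18 to 9.95 in the other strains. The MRL fluoxetine array had a marker mean of 9.37, inside the range of the others (8.87 to 9.63). A fit with oligodendrocyte, striatum and meninges marker levels as covariates called 3 genes: 6330415B21Rik and Zfp937 as before, and Gm10419, named here after its result was seen. Sftpc did not pass in it (0.45, limma adjusted p = 0.192).

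**Figure D3:**
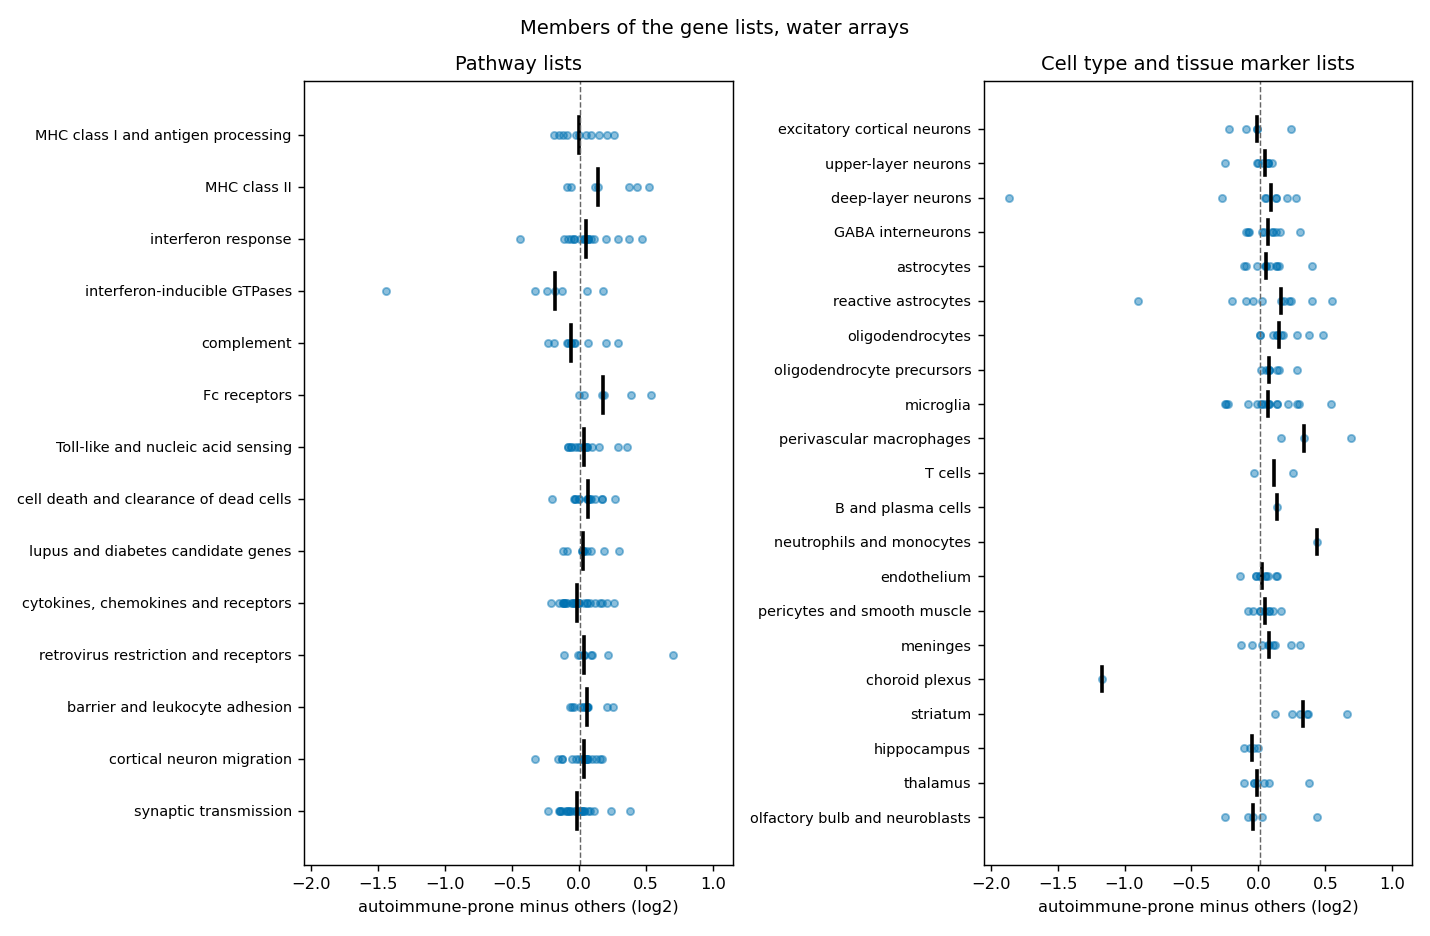
Difference between autoimmune-prone and other strains (log2, water arrays) for each tested member of the pathway lists (left) and marker lists (right); each point is a gene, the black bar the list's median and the dashed line the median of all tested genes, 0.01. The point at -1.44 is Gbp7, the point at -1.86 is Crym, and the striatum list lies to the right with a median of 0.34.

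Each strain had its own genes far outside the range of all 23 others. A water array lay at least 1 log2 beyond that range for 21 genes in NZB (0.177% of genes tested; 4 higher, 17 lower), 14 in NZW (0.118%; 6 higher, 8 lower), 5 in MRL (0.0421%; 2 higher, 3 lower) and 5 in NOD (0.0421%; all 5 lower). Of these, 16, 12, 3 and 4 lay outside on the same side in the strain's fluoxetine array. The same count for each of the 23 others against the remaining 22 ran from 1 to 29, with a median of 10, so NZB ranked 2nd and NZW 10th of 30 strains, while MRL and NOD shared rank 20. All 4 counts lay within the span of the other strains. These counts of recurrence cover all genes outside in water. The genes described next were picked for lying outside in both arrays, so their levels in both are a description, and only their further probe sets were not part of the choice. Several had 1 probe set only, among them Akap8l, Sinhcaf, Aldh3b2, Dcakd, Mamdc2, Crym, Tmem14c and Slc18b1. Whether probe match to the strain's sequence or expression sets the levels of these genes was not tested.

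**Figure D4:**
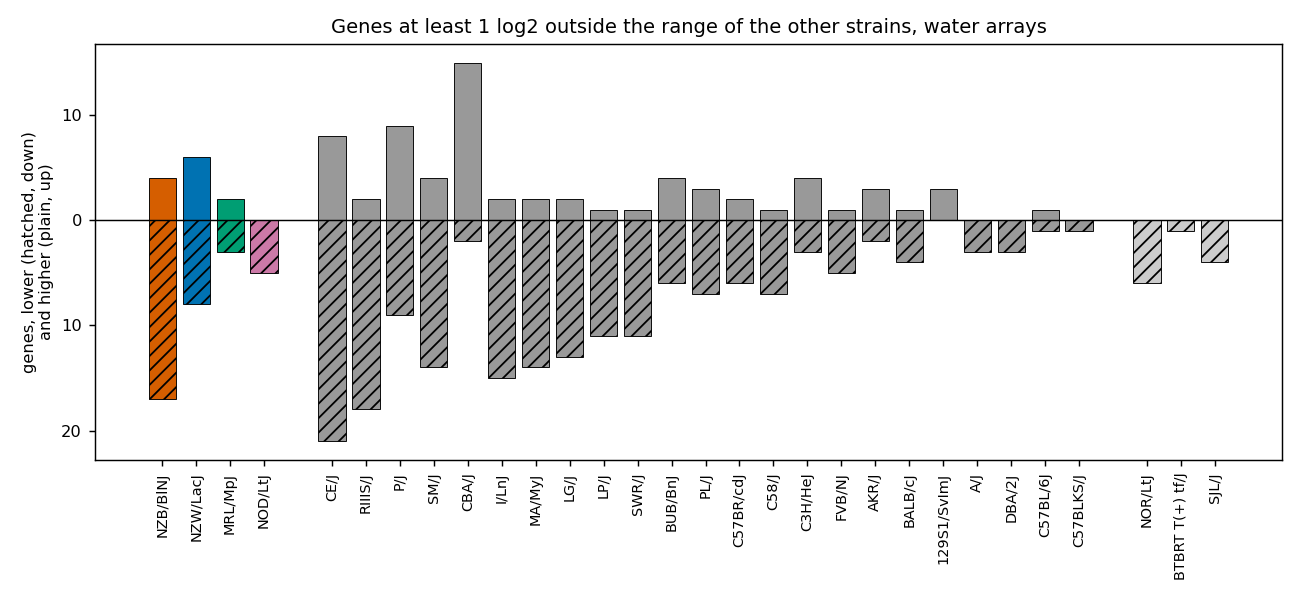
Number of genes whose water array lay at least 1 log2 above (plain bars, up) or below (hatched bars, down) the range of the other strains, for the 4 autoimmune-prone strains (left), the 23 others (middle) and the 3 strains left out of the groups (right). NZB has 4 higher and 17 lower genes and NOD 5 lower, within the span of 1 to 29 seen among the others.

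In NZB a receptor subunit of inhibitory synapses read at or next to the floor. Gabra3, the alpha 3 subunit of the GABA-A receptor, was at 2.07 in the NZB water array and 2.23 in its fluoxetine array, at the floor. It was at 11.46 to 12.2 in the 23 others, and at 11.79 in NZW, 11.76 in MRL and 11.9 in NOD. The second Gabra3 probe set gave 2.16 in both NZB arrays, against 5.42 to 7.64 in the water arrays of the others.

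Further NZB genes were low in both arrays. Akap8l, a nuclear relative of A-kinase anchoring proteins, was at 3.33 with water and 3.5 with fluoxetine, against 9.8 to 10.42 in the others. Sinhcaf, a subunit of a SIN3 histone deacetylase complex, was at 3.13 and 3.4, against 7.27 to 8.58. Nln, the peptidase neurolysin that cuts neurotensin, was at 4.55 and 4.0, against 8.32 to 10.04, and its second probe set at 2.88 and 3.38, against 6.35 to 7.87. Mcph1, the microcephalin gene of chromosome condensation, was at 2.7 and 3.33, against 6.43 to 8.43, with NZW also just below that range at 6.19. A second, low Mcph1 probe set went the other way in NZB, at 3.99 and 4.56, against 2.59 to 3.65.

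In Nt5c2, a cytosolic nucleotidase, the NZB probe sets disagreed in direction. The probe set used was at 6.23 with water and 5.5 with fluoxetine, against 8.98 to 9.51 in the others, and another was at 3.09 and 2.61, against 6.78 to 7.54. One more was high, at 11.51 and 11.71 against 7.39 to 7.83, and the last, at 7.89 and 7.55, was close to the others (7.72 to 8.57). The opposite readings recurred in both NZB arrays, and probe match to the NZB sequence was not tested.

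NZW differed both upward and downward. Aldh3b2, an aldehyde dehydrogenase gene, was at 10.87 with water and 10.81 with fluoxetine in NZW, against 5.04 to 5.21 in the others. With water MRL (5.51) and NOD (5.35) lay slightly above the others as well, and NZB (5.12) at their median, a value that 14 of the 23 shared. With fluoxetine MRL (5.64) and NOD (5.12) lay inside the range of the others (4.87 to 5.7). Sh3rf1, a scaffold and ubiquitin ligase of the JNK pathway, was at 7.15 and 7.35, against 9.62 to 10.84, and a second probe set at 5.2 and 5.3, against 6.43 to 8.71; another probe set was high instead, at 8.22 against 7.0 to 7.83. Slc46a1, the proton-coupled folate transporter, was at 4.73 in both NZW arrays, against 6.17 to 6.89, and its second probe set at 4.61 and 4.26, against 5.66 to 6.51.

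Dcakd was at 5.82 and 6.09 in NZW, against 7.49 to 8.37 in the others. The probe set annotated to Trbv1, a variable segment of the T cell receptor beta chain, was at 3.18 and 2.57 in NZW, against 5.59 to 9.53. It read 8.31 to 9.08 in NZB, MRL and NOD, while the T cell markers named above lay at the floor and a second Trbv1 probe set read 2.07 to 2.23 in all 4.

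In MRL, Ezh1, a histone methyltransferase of the Polycomb repressive complex, was low on several probe sets. It was at 7.37 with water and 6.55 with fluoxetine, against 9.39 to 9.89 in the others, and 2 further probe sets were low as well, at 4.56 and 3.45 against 6.32 to 7.01 and at 3.95 in both arrays against 5.56 to 6.83. Mamdc2 was at 2.2 and 3.05, against 5.26 to 7.03. Prss16, a serine protease known from the thymus, was high at 5.69 and 5.5, against 3.25 to 4.72. Rasgrp2, an exchange factor for Ras-family proteins, was at 7.05 and 6.69 in MRL and at 6.66 and 6.65 in NZB, against 5.21 to 6.2 in the others; further Rasgrp2 probe sets, all at low levels, did not show it.

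The transcript 6820431F20Rik was low in MRL, at 6.46 and 6.57, against 7.64 to 9.8. NOD (7.05) and NOR/LtJ (7.29) also lay below that range. Over all genes tested, the MRL water array was most like that of LG/J, with a correlation across genes of 0.53 after each gene was centred over the 27 strains. This was the highest of the 351 pairs, whose median was -0.04. Pairs among the 4 strains ran from -0.18 for NZW with MRL to 0.11 for MRL with NOD, with 0.09 for NZB with NZW. Genes are not independent replicates and strains share the centring, so these values carry no test.

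In NOD the gene farthest below the others was Crym, the thyroid hormone binding protein mu-crystallin and a marker of deep cortical layers. It was at 3.12 with water and 4.63 with fluoxetine, against 10.48 to 11.46 in the others, and at 11.08 to 11.18 in NZB, NZW and MRL. The related NOR/LtJ was at 11.15. Of the 8 tested deep-layer markers Crym was the 1 for which NOD lay below all others, with water and with fluoxetine. Bcl11b was at 10.97 in the NOD water array, against 10.79 to 11.49, Fezf2 at 10.79, against 10.15 to 11.02, and Sulf1 at 6.26, against 5.7 to 7.33.

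Some genes low in NOD were also low in NOR/LtJ. Tmem14c, which moves porphyrins into mitochondria for heme synthesis, was at 3.55 and 4.03 in NOD, against 9.27 to 9.69 in the others, and at 3.51 in NOR/LtJ. The transcript 4930447M23Rik was at 4.19 and 5.51, against 7.71 to 9.28, with NOR/LtJ at 4.96 and SJL/J at 4.02. Slc18b1, a vesicular polyamine transporter, was at 7.32 and 7.63 in NOD, against 9.43 to 9.72, and at 9.44 in NOR/LtJ, inside the range of the others. 3830406C13Rik was at 8.19 and 7.95, against 9.19 to 10.29, and its second probe set at 6.93 and 6.55, against 7.75 to 8.47.

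**Figure D5:**
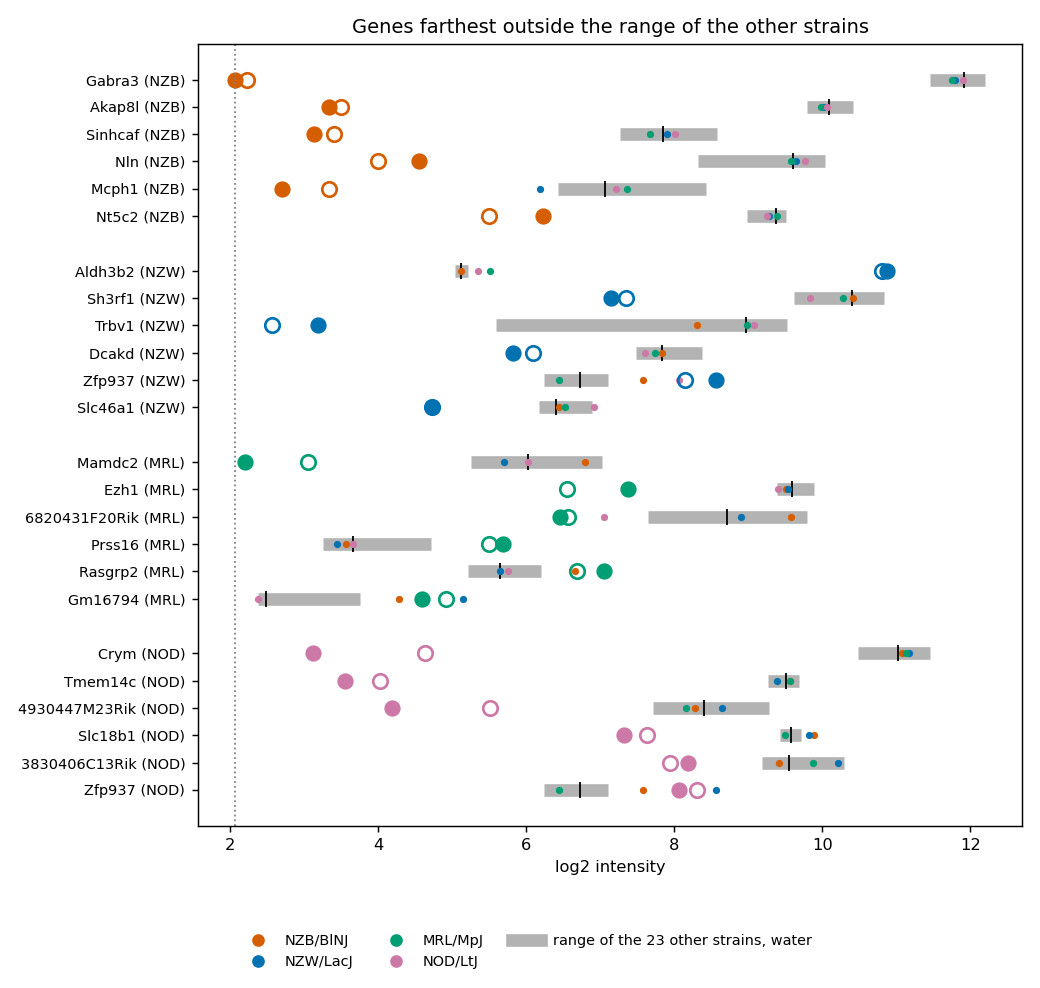
Log2 intensity of the 6 genes farthest outside the range in each of the 4 strains; large filled circles are the strain's water array, open circles its fluoxetine array, small points the other 3 autoimmune-prone strains, grey bars the range of the 23 others with a tick at their median, and the dotted line the floor of 2.07. The genes were chosen for lying outside the range on the same side in both arrays; Gabra3 in NZB lies at the floor.

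No dependence of the contrast on treatment was detected. In the fluoxetine arrays of the same strains 3 of 11886 genes passed (0.0252%), all higher: Zfp937, Fyttd1 and Nectin2, the last named after its result was seen. There 692 had an unadjusted p under 0.05 (5.82%). In a test of the within-strain difference between fluoxetine and water, 4 strains against 23, limma called 0 genes, with 439 at an unadjusted p under 0.05 (3.69%) and a smallest adjusted p of 0.942. The water and fluoxetine arrays of a strain, after centring, correlated across genes at 0.85 in NZB, 0.76 in NZW, 0.76 in MRL and 0.72 in NOD.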

How the data were processed

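The series measured cortex RNA on Affymetrix mouse expression arrays, 1 array per strain and treatment. The values the authors deposited are linear intensities (4.21 to 72333.5), made with GCRMA, per the submitters' processing notes and with no version stated there; GCRMA corrects background, normalizes between arrays and compresses low values. Array medians were 39.1 to 43.1. Scan batches and the genome build are not given in the sources used here. Values were taken to log2 with no pseudocount. Of 45101 probe sets, 34945 had 1 gene name, 932 several and 9160 none, and 64 were controls; a gene was read from its probe set with the highest mean (18193 genes), and 11886 genes with log2 of at least 4 in at least 6 of 60 arrays were tested. The main test was limma 3.58.1 (lmFit, eBayes; R 4.3.3) on 27 water arrays, tested on simulated data; single values used exact permutation (scipy 1.17.1). Named genes were those past the threshold, or the 8 with the smallest p in each direction where fewer passed; in each pathway list, 2 members by smallest p; the 6 genes per strain farthest outside the range of the others and outside in the fluoxetine array too; and a fixed set of risk and marker genes. Members and lists were chosen with earlier results of these data known. Alternatives were the filter, probe set choice, centring, array set, strains left out, eBayes options and marker covariates.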

Additional observations from a re-analysis of the deposited data

Results flagged for a closer look

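Of 73 named genes examined over the water arrays of the 4 autoimmune-prone strains, 20 had 1 strain whose gap to the nearest of the other 3 exceeded Dixon's 95% critical value for 4 samples, as a share of the range. Chance gives such a gap in about 1 of 20 groups, and the genes named for lying outside the range in 1 strain were picked for it. NZB set apart 6: Gabra3 at 2.07 (the remaining 3 at 11.76 to 11.9), Akap8l at 3.33 (9.98 to 10.06), Sinhcaf at 3.13 (7.67 to 8.01), Nln at 4.55 (9.58 to 9.77), Nt5c2 at 6.23 (9.26 to 9.39) and Tnip1 at 9.79 (9.34 to 9.4). NZW set apart 3: Aldh3b2 at 10.87 (5.12 to 5.51), Trbv1 at 3.18 (8.31 to 9.08) and Dcakd at 5.82 (7.6 to 7.84). MRL set apart 4: Ezh1 at 7.37 (9.4 to 9.54), Prss16 at 5.69 (3.44 to 3.66), H2-D1 at 7.8 (9.73 to 10.04) and H2-K1 at 4.98 (8.76 to 9.1). NOD set apart 7: Crym at 3.12 (11.08 to 11.18), Tmem14c at 3.55 (9.39 to 9.56), 4930447M23Rik at 4.19 (8.16 to 8.65), Slc18b1 at 7.32 (9.5 to 9.89), Psme1 at 9.9 (10.18 to 10.23), H2-Ab1 at 4.92 (4.22 in each) and H2-Eb1 at 4.93 (3.8 in each). For H2-Ab1 and H2-Eb1 the remaining 3 strains sat on 1 shared low value. Any other NOD level would have given the full gap, so the critical value does not apply to them. Psme1, of the proteasome activator, read 10.1 in the NOD fluoxetine array and 9.96 in that of MRL, so NOD was not the lowest there, and Tnip1 read 9.63 in the NZB fluoxetine array, inside the range of the other strains with fluoxetine (8.82 to 9.76).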

How the results depend on the processing

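The count of genes passing, 3 in the main setting, was 10 without a filter on low values (9 higher, 1 lower), 1 with a filter at log2 6, 1 with arrays centred on their median, 5 with NOR/LtJ, SJL/J and BTBRT T(+) tf/J among the others, 1 with trend and robust options of eBayes, and 1 to 12 when each autoimmune-prone strain was left out in turn: 1 without NZW, 2 without NZB, 12 without MRL and 5 without NOD. It stayed within 1.5 times of 3 in the other alternatives run (2 to 4), among them NZB and NZW averaged as 1 sample (2). Of 660 recomputed differences of 42 genes, 656 kept their direction. The 4 that turned were Stk32a (-0.05) and Parp14 (-0.03) in the fluoxetine arrays, and Masp1 (0.08) and Fcgr2b (-0.04) with the mean of all probe sets. Genes outside the range by at least 0.5 log2 numbered 63 in NZB, 41 in NZW, 18 in MRL and 36 in NOD, and by at least 2 log2 10, 3, 2 and 4; in the fluoxetine arrays at 1 log2 they numbered 20, 12, 3 and 12. Zfp937 passed in 7 of 16 alternatives, Sftpc in 7 of 14 and 6330415B21Rik in 11 of 16. No paired analysis was possible because the groups hold different strains and the replicate numbers only name them. Of 263 measured immune pathway genes 147 passed the filter on low values, and the rest were not tested.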

Other observations

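The genes in these paragraphs were chosen after their values were seen, and their levels are a description without tests. NZB and NZW, set against the same 23 strains, shared some high levels. Ccl25, a chemokine known from thymus and gut, was at 8.33 in NZB and 9.0 in NZW, with 6.66 in MRL and 7.1 in NOD, against 6.07 to 8.13 in the others; the fluoxetine arrays gave 8.2 and 9.02 in NZB and NZW. Ctse, the protease cathepsin E, was at 8.71 in NZB and 8.22 in NZW, with 7.54 in MRL and 6.56 in NOD, against 2.72 to 7.78, and at 8.86 and 8.63 in the fluoxetine arrays. Its second probe set stayed near the floor in all 4 (2.24 to 2.77). Faap24, a DNA repair gene, was low in both, at 5.68 and 5.38 against 6.6 to 7.54. Pdgfd, a platelet-derived growth factor, was at 4.9 in NZB, 4.85 in NZW, 5.04 in MRL and 4.85 in NOD, the bottom of a range in the others that ran from 4.85 to 7.29.

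Beyond the genes already described, NZB was low for Vezt, an adherens junction gene (7.51 against 10.03 to 10.9; second probe set 7.06 against 7.67 to 8.33), and for Wdr41 on both probe sets (6.32 against 7.59 to 8.3, and 5.45 against 7.73 to 8.12). It was low for Pole4, a DNA polymerase epsilon subunit (6.66 against 8.73 to 9.62), although a second probe set read 8.65, inside the range of 8.54 to 9.16. NZB was high for the noncoding RNA Dleu2 (9.15 against 6.99 to 8.0; second probe set 9.16 against 6.54 to 7.91). NZW was high for Kdm6a, an X-linked histone demethylase, on 3 probe sets: 11.27 against 9.92 to 10.29, 10.58 against 8.55 to 9.62, and 7.17 against 5.29 to 6.29. It was also high for Maob, the X-linked monoamine oxidase B (10.46 against 8.75 to 9.76; 10.42 with fluoxetine), and for C1ql1, a synaptic organizer (5.52 against 2.87 to 4.18). NOD was low for Suclg2, a citric acid cycle gene (8.46 against 9.12 to 9.6), as was NOR/LtJ at 8.47.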
